A study of Mus musculus with 2 samples.

Results

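The 10 genes described here carry out and control MHC class I presentation: the heavy chains H2-K1 and H2-D1, the light chain B2m, the peptide transporter subunits Tap1 and Tap2, the loading factor Tapbp (tapasin), the inducible proteasome subunits Psmb8, Psmb9 and Psmb10, and the transactivator Nlrc5. They were chosen by gene symbol and are 10 of 32286 features. Their levels were followed across cell classes of the lungs of female BALB/c mice, labelled as 9 to 10 weeks old. Over 3 weeks the animals were injected intravenously. The group named TCM received tumor-conditioned media, in which primary 4T1 mammary tumors had been cultured, and the group named CM received control media. Each group is 1 library, and how many mice went into a library is not given in the sources used here, so a ratio of TCM over CM compares 2 libraries and has no replicate behind it.

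MHC class I molecules show peptides of a cell's own proteins to CD8 T cells. Proteasomes cut the proteins, TAP carries the peptides into the endoplasmic reticulum, tapasin holds TAP to empty heavy chains there, and B2m is needed for a stable complex at the surface. Interferon gamma induces most of these genes, in part through IRF1, and its target Nlrc5 acts at class I promoters. In cells that make PSMB8, PSMB9 and PSMB10, these subunits take the places of PSMB5, PSMB6 and PSMB7 in newly built proteasomes, which are then called immunoproteasomes.

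Of the members, 7 lie on mouse chromosome 17, in the MHC. Psmb9, Tap1, Psmb8 and Tap2 follow each other within 34.3 kb (GENCODE, GRCm38), from Psmb9 at chr17:34181987-34187764 on the minus strand to Tap2 at chr17:34203527-34216321 on the plus strand. H2-K1 (chr17:33996017-34000347), Tapbp (chr17:33915899-33929292) and H2-D1 (chr17:35262730-35267499) flank this group. B2m is on chromosome 2 (chr2:122147686-122153083), and Nlrc5 (chr8:94434356-94527272) and Psmb10 (chr8:105935735-105938444) are on chromosome 8. RefSeq's promoter table (GRCm38.p6) held 8 of the 10 members. The windows below are printed because they show what the 2 heavy chains and B2m share upstream, and that Psmb9 and Tap1 start back to back by RefSeq's start sites. The first 3 windows are the 180 bases before RefSeq's start site. The last is the 225 bases between RefSeq's start sites of Psmb9 and Tap1. These sites differ from the ends of the GENCODE spans above. The H2-D1 window lies within the GENCODE span of H2-D1, and the last window within that of Psmb9. Capitals mark matches, on either strand, to the kappa B consensus, to the interferon response core GAANNGAA, to CCAAT, to TGACG (the core of a CRE or X2 box) and to the GAS motif TTCNNNGAA.
H2-K1, chr17:34000334-34000513, minus strand: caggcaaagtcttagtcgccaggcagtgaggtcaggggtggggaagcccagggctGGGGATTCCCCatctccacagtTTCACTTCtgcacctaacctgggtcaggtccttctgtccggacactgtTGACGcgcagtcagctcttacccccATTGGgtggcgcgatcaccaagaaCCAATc
H2-D1, chr17:35262914-35263093, plus strand: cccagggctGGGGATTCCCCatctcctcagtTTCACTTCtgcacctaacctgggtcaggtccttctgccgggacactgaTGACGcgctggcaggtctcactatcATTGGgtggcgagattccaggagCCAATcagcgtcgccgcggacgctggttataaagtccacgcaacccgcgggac
B2m, chr2:122147507-122147686, plus strand: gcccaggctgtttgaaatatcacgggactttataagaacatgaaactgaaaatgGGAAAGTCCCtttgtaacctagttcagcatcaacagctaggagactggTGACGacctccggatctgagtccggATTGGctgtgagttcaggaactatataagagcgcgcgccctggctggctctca
Psmb9 and Tap1, chr17:34187331-34187555, plus strand: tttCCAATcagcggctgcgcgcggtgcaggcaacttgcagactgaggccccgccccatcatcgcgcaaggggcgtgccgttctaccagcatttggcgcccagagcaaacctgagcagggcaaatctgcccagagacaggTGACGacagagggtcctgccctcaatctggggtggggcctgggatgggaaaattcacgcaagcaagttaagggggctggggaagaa
H2-K1 and H2-D1 hold the same series in the same order, a kappa B match, an interferon response core, TGACG and CCAAT on each strand, and 89 of the 100 bases from the kappa B match onward are identical. In both genes the kappa B consensus matched on both strands and at 2 overlapping positions. B2m holds kappa B, TGACG and CCAAT but no GAANNGAA in this window. It does hold gaaactgaaa shortly before the kappa B match, where 2 GAA stand 3 bases apart, a spacing that GAANNGAA does not find. The missing match is therefore not read as the lack of an interferon response element. Of all 32851 promoters in the table, 4.51% held kappa B, 20.1% GAANNGAA, 37.4% CCAAT, 20.8% TGACG and 8.30% the GAS motif within 300 bases, and 0.840% held kappa B together with GAANNGAA. Among the 8 members in the table these counts were 3, 3, 6, 5 and 1, the last being Psmb8. These sequences are those of C57BL/6J, whereas BALB/c mice carry another MHC haplotype.

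The 2 libraries held 31944151 UMIs (CM) and 36648719 UMIs (TCM), of which 7988 and 7707 droplets were kept as cells, with a median of 2085 and 2346 UMIs and 93 shared barcodes (83.5 would be shared by random draw). Cells were assigned to classes by marker genes, and each name below stands for cells that are like that type by these markers (AT2-like, and so on). Markers of more than 1 class kept 13.4% (CM) and 11.3% (TCM) of the cells out of every class, and too few markers kept out 11.6% and 8.46%. A further 8.29% and 6.37% lay near the margin set against the next class. Of the gated cells in named clusters, 95.8% fell in a cluster of the same family, but the clusters were named from the same markers. The comparison covered 19 classes, each with 50 cells or more in both libraries. In every one of them more of its own markers than of any other class's stood among its top 10 genes. The gate on these markers favours that outcome, so neither value is an independent check of the classes. Free RNA came to 155 UMIs per cell in CM and 259 in TCM. Of the cells gated as neutrophils there were 278 in CM and 1452 in TCM. Erythroid cells had median depths of 732.5 and 581.5 UMIs, and 41.0% of their member UMIs in TCM was what free RNA would give, so they are counted among the 19 classes but not described one by one. Levels below are UMIs per 100000 UMIs of the class (CP100k) with exact Poisson 95% intervals.

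The members were highest in capillary endothelium and in lymphocytes and lowest in alveolar epithelium, fibroblasts and mural cells. Summed over the 10 genes, which is mostly the heavy chains and B2m, general capillary cells reached 855 CP100k (845 to 865) in CM and 795 (786 to 804) in TCM, aerocytes 888 and 813, NK cells 751 and 845, and CD4 T cells 728 and 749. Alveolar type II (AT2) cells reached 180 (172 to 187) and 145 (139 to 151), alveolar fibroblasts 177 and 176, and smooth muscle cells 104 and 89.3. General capillary cells were 4.76-fold (4.56 to 4.97) above AT2 cells in CM and 5.48-fold (5.25 to 5.72) in TCM, intervals that cover counting error only. Macrophages and neutrophils lay between these groups, at 367 to 459 CP100k in CM and 365 to 482 in TCM.

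**Figure D1:**
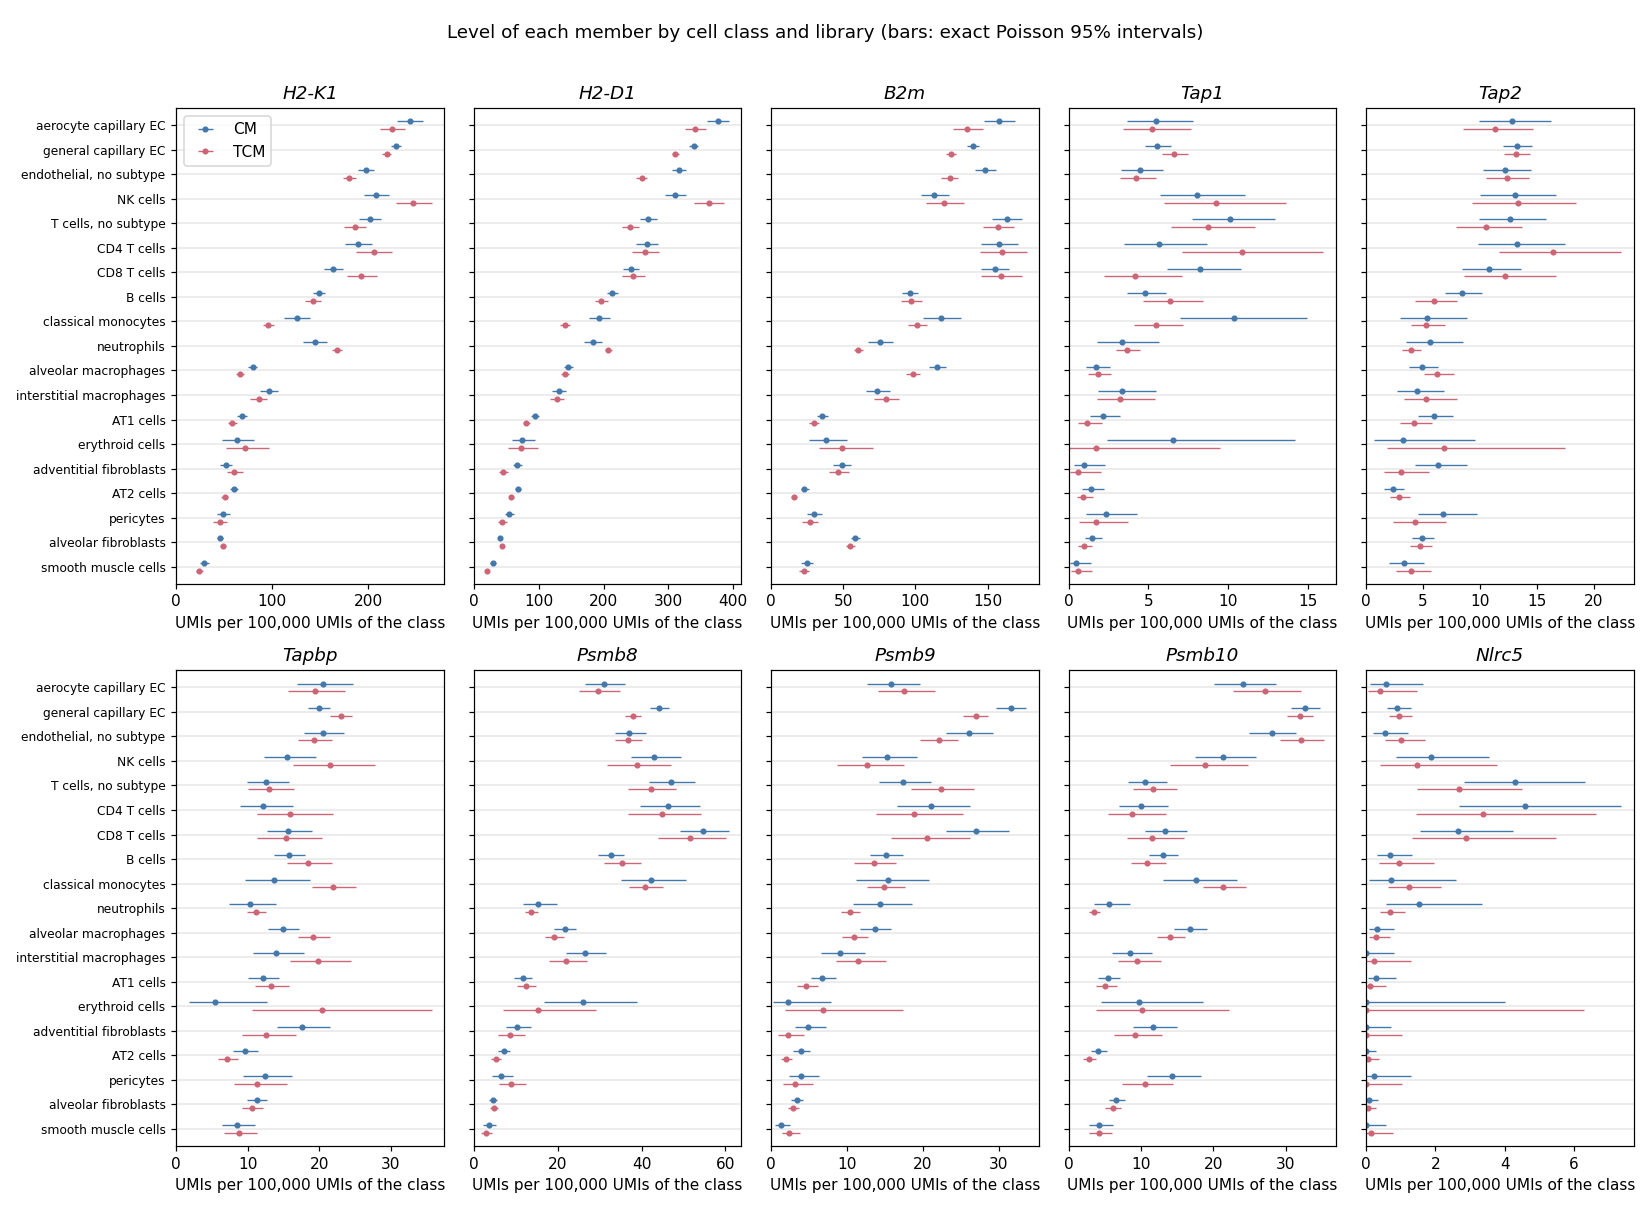
Level of each of the 10 members (x axis, UMIs per 100000 UMIs of the class, from 0) in 19 cell classes (y axis, ordered by the summed level in CM), with CM in blue and TCM in red and exact Poisson 95% intervals as bars. H2-K1 runs from 243 CP100k in aerocytes to 29.2 in smooth muscle cells in CM, and in most classes the points of the 2 libraries lie close together against the spread over classes.

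Among the heavy chains, H2-K1 stood at 243 CP100k (230 to 257) in aerocytes in CM and at 225 in TCM. General capillary cells had 229 and 219, NK cells 209 and 247, and CD8 T cells 163 and 193. B cells followed with 149 and 142, neutrophils with 144 and 167, and alveolar macrophages with 79.5 and 66.1. AT2 cells had 60.2 and 50.4, alveolar fibroblasts 45.7 and 48.2, and smooth muscle cells the lowest level, 29.2 and 23.8. From the highest class, aerocytes in CM and NK cells in TCM, to the lowest this was a range of 8.33-fold in CM and 10.4-fold in TCM. The intervals of neighbours in this order were apart in 6 of 18 places in CM and in 4 of 18 in TCM, so most adjacent classes had overlapping intervals.

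H2-D1 followed H2-K1 closely across classes, with a correlation of log2(CP100k + 1) of 0.98 over the 38 profiles of class and library, which share depth and free RNA within a library. It stood at 376 CP100k in aerocytes, 339 in general capillary cells and 311 in NK cells in CM, against 341, 310.3 and 362 in TCM. In smooth muscle cells it was 29.4 and 19.9, and its range over classes was 12.8-fold in CM and 18.2-fold in TCM. The balance of the 2 heavy chains was not the same everywhere. H2-K1 made up 40.3% (39.6 to 41.0) of their UMIs in general capillary cells in CM and 41.4% in TCM, but 53.2% (50.8 to 55.5) and 52.9% in alveolar fibroblasts and 35.3% (33.6 to 37.1) and 32.0% in alveolar macrophages. In adventitial fibroblasts the share was 43.5% (39.5 to 47.6) in CM and 57.1% (52.0 to 62.1) in TCM. Heavy chain genes are near copies of each other, and reads of BALB/c alleles were counted against a C57BL/6J genome, so how UMIs were split between H2-K1, H2-D1 and their relatives is uncertain.

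B2m, the light chain of all class I molecules, had its top levels in T cells and aerocytes, at 163 CP100k in T cells with no subtype, 158 in CD4 and 155 in CD8 T cells in CM, and at 157, 160.3 and 159 in TCM. Aerocytes had 158 and 136, and general capillary cells 139.8 and 125. The top intervals overlap. With classes taken from clusters aerocytes were highest in both libraries among the 14 classes ranked. T cells were not split by subtype in the clusters and were not in that ranking, so it does not compare aerocytes with them. The lowest level was in AT2 cells, at 23.1 (20.5 to 25.9) in CM and 15.8 (13.9 to 17.9) in TCM, a range over classes of 7.08-fold and 10.1-fold. Alveolar fibroblasts, which were near the bottom for both heavy chains, had 58.4 and 54.9 CP100k of B2m, above the 35.3 and 29.6 of alveolar type I (AT1) cells.

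The transporter subunits were much rarer in UMIs and their order over classes was less certain, since no pair of neighbours had intervals apart. Tap1 was highest in classical monocytes in CM (10.4 CP100k, 29 UMIs) and in CD4 T cells in TCM (10.9 CP100k). It was lowest in smooth muscle cells in CM, at 0.471, and in adventitial fibroblasts in TCM, at 0.558. Tap2 was highest in CD4 T cells (13.2 and 16.4) and lowest in AT2 cells (2.35 and 2.85). General capillary cells had 5.56 and 6.64 CP100k of Tap1 and 13.2 in both libraries of Tap2. Tapbp varied least over classes: the top was 20.5 in endothelial cells with no subtype in CM and 23.01 in general capillary cells in TCM, and AT2 cells had 9.55 and 7.13.

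For Tapbp, the inducible proteasome subunits and Nlrc5 too, none of the 18 pairs of neighbours had intervals apart in either library, so the highest and lowest classes named are those of the point values. Of the inducible proteasome subunits, Psmb8 was highest in CD8 T cells (54.7 and 51.5 CP100k) and Psmb9 in general capillary cells (31.6 and 27.0). Psmb10 was highest in general capillary cells in CM (32.7) and in endothelial cells with no subtype in TCM (32.2). Smooth muscle cells had 3.61 and 2.82 CP100k of Psmb8, and 1.26 and 2.40 of Psmb9. In the small class of conventional dendritic cells, with 41 and 45 cells, Psmb8 was at 74.5 and 64.8 and Psmb9 at 51.9 and 34.8, which is above every class of 50 cells or more. Neutrophils had 15.4 and 13.7 of Psmb8, 14.3 and 10.4 of Psmb9 and 5.64 and 3.55 of Psmb10. Nlrc5 was the rarest member, with 201 UMIs in CM and 186 in TCM over all cells. Its highest levels were in CD4 T cells (4.59 and 3.36 CP100k), T cells with no subtype (4.30 and 2.67) and CD8 T cells (2.65 and 2.88), against 0.896 and 0.956 in general capillary cells. In AT2 cells Nlrc5 had 0 UMIs in CM, where the upper end of the interval is 0.289 CP100k, and 1 UMI in TCM.

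The inducible subunits were then set against the constitutive subunits they replace. The constitutive subunits also differed between classes, so a share can move with either gene. Psmb5 ran from 8.20 CP100k in neutrophils to 34.8 in alveolar macrophages in CM, and from 6.15 in neutrophils to 34.2 in AT1 cells in TCM. Psmb7 ran from 3.31 in B cells to 8.18 in pericytes in CM. Psmb8 made up 79.4% (75.3 to 83.1) of the UMIs of Psmb8 and Psmb5 in CD8 T cells in CM and 74.9% (68.5 to 80.5) in TCM. The share was 66.8% (64.8 to 68.8) and 64.6% in general capillary cells, 38.4% and 37.1% in alveolar macrophages, 34.3% and 28.4% in AT2 cells, 19.3% and 18.5% in alveolar fibroblasts and 14.6% (9.46 to 21.0) and 11.4% in smooth muscle cells. Psmb9 made up 54.2% (51.9 to 56.5) and 51.4% of Psmb9 and Psmb6 in general capillary cells and 3.81% and 6.72% in smooth muscle cells. Neutrophils had 69.1% (57.9 to 78.9) and 67.1%. In both libraries their Psmb6 was below that of general capillary and smooth muscle cells, while their Psmb9 lay between these classes. Psmb10 made up 81.0% (78.8 to 83.1) and 80.7% of Psmb10 and Psmb7 in general capillary cells, 45.6% and 38.4% in AT2 cells and 35.5% and 40.5% in smooth muscle cells. The Psmb8 share was 38.4% (34.8 to 42.1) in alveolar and 60.7% (53.5 to 67.6) in interstitial macrophages in CM, and 37.1% against 58.2% in TCM. The level of Psmb8 itself had overlapping intervals in these classes in CM, at 21.7 CP100k (19.2 to 24.4) against 26.4 (21.9 to 31.6), while Psmb5 was at 34.8 (31.7 to 38.2) against 17.1 (13.5 to 21.4). The Psmb10 share was 67.3% and 60.3% in CM, with overlapping intervals. These are shares of transcript UMIs, each gene is captured with its own efficiency, and they are therefore compared between classes and not read as the makeup of proteasomes.

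**Figure D2:**
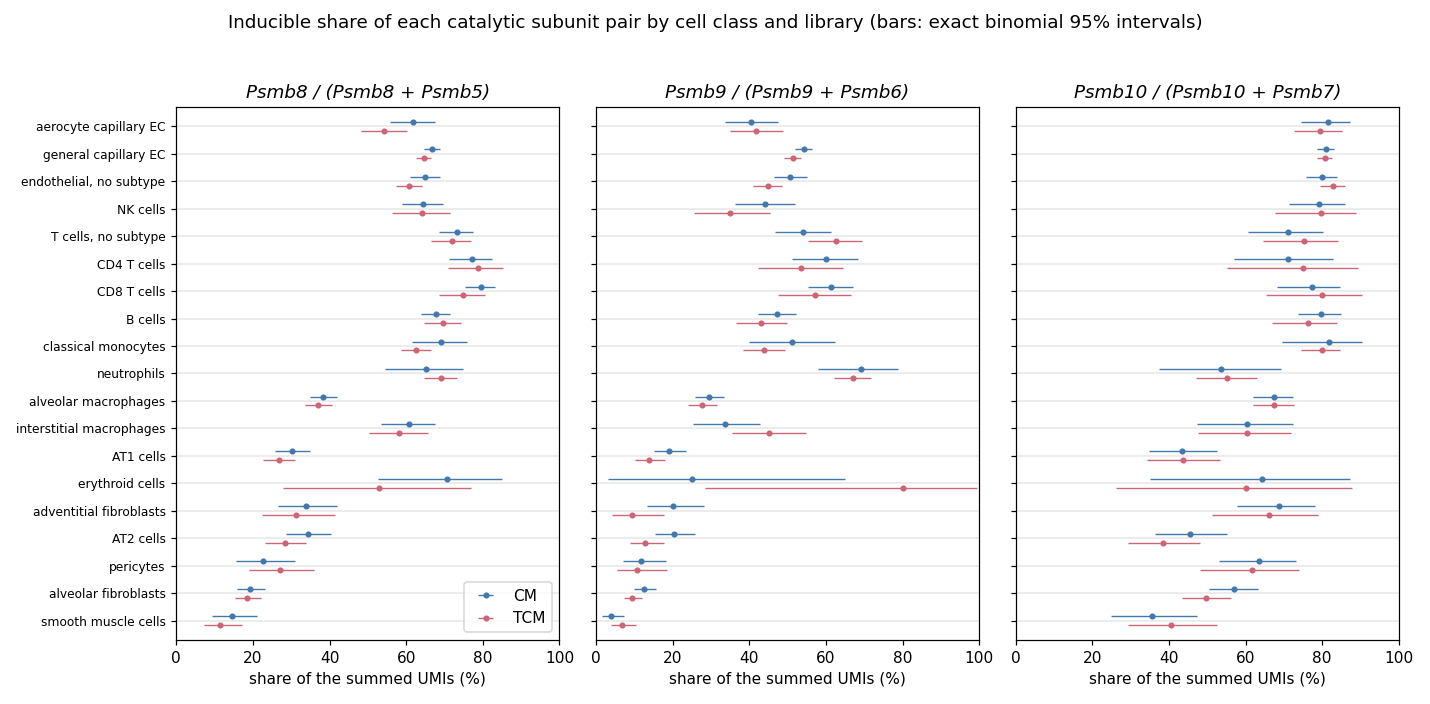
Share of the inducible subunit in the summed UMIs of the inducible and the constitutive subunit (x axis, 0 to 100%) for Psmb8 with Psmb5, Psmb9 with Psmb6 and Psmb10 with Psmb7 in 19 cell classes (y axis), with CM in blue, TCM in red and exact binomial 95% intervals as bars. The Psmb8 share falls from 79.4% in CD8 T cells to 14.6% in smooth muscle cells in CM, and it is lower in alveolar macrophages than in interstitial macrophages in both libraries.

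Across the 38 profiles of class and library the 10 members varied together, as a description over profiles that share libraries and depth. Correlations with H2-K1 were 0.98 for H2-D1, 0.90 for Psmb9, 0.88 for Psmb8, 0.87 for B2m, 0.85 for Tap1 and 0.82 for Tap2. They were lower for Nlrc5 (0.74), Psmb10 (0.62) and Tapbp (0.58), and the lowest between any pair was 0.26, for Tapbp with Nlrc5. Of 8134 other genes, those with the profile most like the mean of the members were H2-Q6 (0.91), H2-T23 (0.90), Il2rg (0.90), H2-Q4 (0.89), Hnrnpf (0.88), H2-Q7 (0.88), H2-Q1 (0.88), Ifi47 (0.88), Gbp9 (0.87) and Prkch (0.87). Of these, 5 are class I genes of the H2-Q and H2-T groups, Ifi47 and Gbp9 encode interferon-inducible GTPases, and Il2rg encodes the common cytokine receptor gamma chain.

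The next question was whether the members differed between the TCM and CM lungs. Over all filtered cells they hardly did. The median log2 ratio of the 10 members was -0.07, beside -0.05 for all genes, with 8 of 10 below 0 and none at 1.5-fold. H2-K1 was at 122 CP100k in both libraries, while H2-D1 went from 175 to 168, B2m from 89.4 to 81.3, Psmb8 from 26.3 to 23.3 and Psmb9 from 15.4 to 13.5. A ratio over all cells also holds the change in cell makeup, above all the larger number of neutrophils in TCM. Within classes, 150 of 190 combinations of member and class had at least 50 UMIs. Of these, 1 was at least 1.5-fold higher in TCM, beside 5.70% of all combinations of gene and class, and 5 were at least 1.5-fold lower, beside 5.73%. Both shares of the members are below that background, but it is not matched for UMI count. At least 1000 UMIs were held by 43 of the 150 combinations of the members, beside 5243 of 77364 of all genes. The members are therefore not read as steadier than other genes. In 99 of the 150 the ratio was below 0 and in 51 above it, and the counting interval lay below 0 in 33 and above 0 in 9. Of all combinations of gene and class with at least 50 UMIs, 49.4% had a ratio below 0, 7.48% an interval below 0 and 7.86% one above it. An interval narrows with the count, and the members hold many UMIs. Among combinations with at least 1000 UMIs, 24.6% of all genes had an interval below 0 and 23.7% one above it, beside 22 and 6 of 43 for the members. The median of the members was below 0 in 15 of 19 classes and below the median of all genes in 13. It ran from -0.42 in AT2 cells to 0.18 in erythroid cells, where 3 members were measured, and without that class to 0.11 in interstitial macrophages. By member, H2-D1 had an interval below 0 in 11 of 19 classes and B2m in 8, and H2-D1 came near 1.5-fold lower in adventitial fibroblasts and smooth muscle cells, at -0.56 in each. Tapbp had an interval above 0 in 4 of 18 classes and below 0 in 1.

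**Figure D3:**
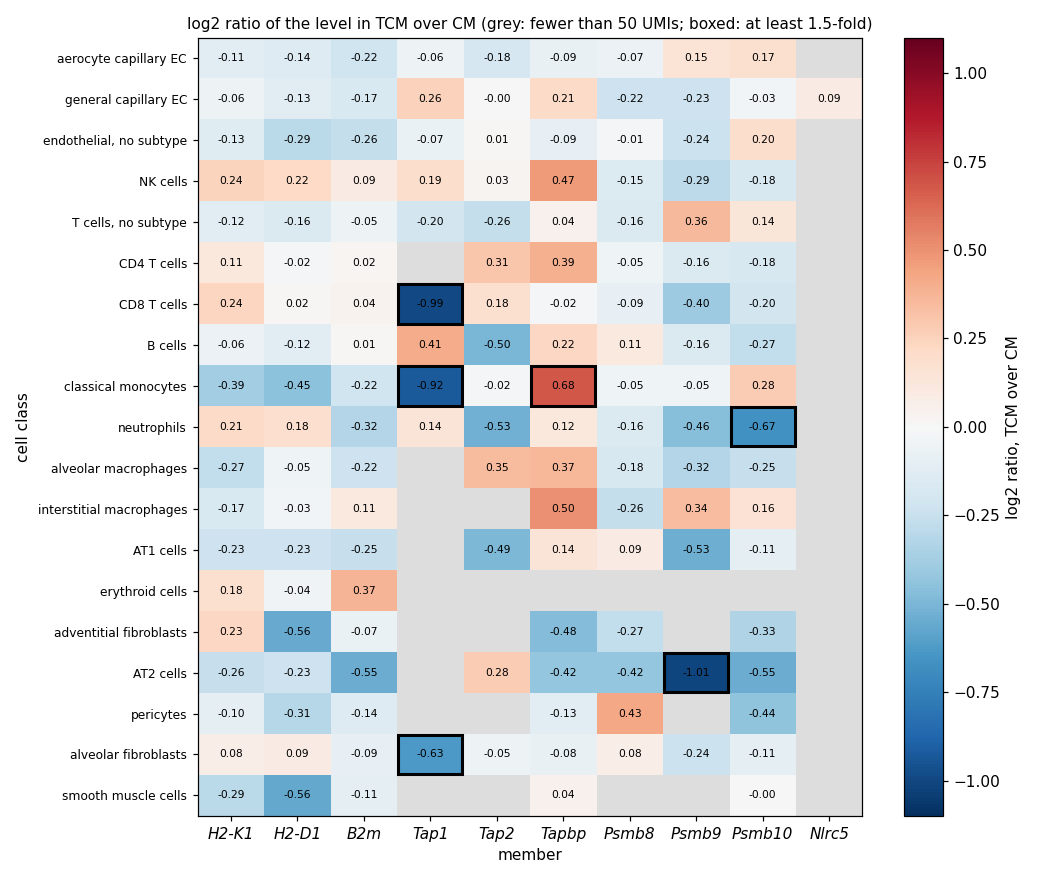
log2 ratio of the level in TCM over CM for the 10 members (x axis) in 19 cell classes (y axis), coloured from blue (lower in TCM) to red (higher in TCM), with the value in each cell, grey where the class held fewer than 50 UMIs of the gene and a box where the ratio is at least 1.5-fold. The 6 boxes are Psmb9 in AT2 cells, Tap1 in CD8 T cells, classical monocytes and alveolar fibroblasts, Psmb10 in neutrophils and Tapbp in classical monocytes.

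The AT2 cells had the lowest median, -0.42 over 8 measured members beside 0.01 for all genes, and 7 of the 8 were below 0. Psmb9 went from 3.91 CP100k (50 UMIs) to 1.94 (30 UMIs), a log2 ratio of -1.01 (-1.71 to -0.33), where 5.56% of all genes in this class were at least 1.5-fold lower. B2m had -0.55 (-0.80 to -0.30), Tapbp -0.42 (-0.81 to -0.04), H2-K1 -0.26 and H2-D1 -0.23, all with intervals below 0. Psmb10 had -0.55, Psmb8 -0.42 and Tap2 0.28, with intervals that include 0. The paired subunits had -0.02 for Psmb5, -0.22 for Psmb6 and -0.12 for Psmb7. All 11 other core subunits were below 0, with a median of -0.22, and so were 3 of 4 activator and assembly genes, among them the activator subunit Psme1 (-0.28, -0.49 to -0.07). All 4 measured peptide loading and trimming genes were above 0, with a median of 0.24. Of 6 measured other class I genes, 4 were past 1.5-fold lower: H2-Q1 (-1.01), H2-Q6 (-0.81), H2-T22 (-0.77, interval from -1.63 to 0.07) and H2-Q4 (-0.65). Of the regulators, Irf1 had -0.28, and of 8 measured transcription factors 1 was past 1.5-fold lower and 1 higher, Creb1 (1.06, 19 and 48 UMIs), a factor that binds CRE motifs. Ifngr1, a chain of the interferon gamma receptor, had -0.64.

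Several other measures differed between the AT2 cells of the 2 libraries. They held a median of 1977 UMIs per cell in CM against 5144.5 in TCM, and the 10 AT2 markers, all higher in TCM, summed to 5942 and 6694 CP100k. They also lay in different clusters: 220 in CM and 278 in TCM were in 1 AT2 cluster with a median of 5162 UMIs, but 70 and 4 were in another AT2 cluster with a median of 1397 UMIs, and 20 and 4 in an unnamed cluster. The 9 shared endothelial markers, from the cells in which the members are highest, summed to 52.0 CP100k in CM and 30.9 in TCM within the AT2 class, with all 9 lower in TCM and none at 0. Markers of some other cells were lower as well, with the shared fibroblast markers at 24.1 and 6.42 (0 of 5 higher), adventitial fibroblast markers at 24.5 and 8.30 (2 of 8 higher), B cell markers at 12.3 and 3.50 (0 of 8 higher) and NK markers at 14.5 and 4.80 (1 of 8 higher). Other lists summed higher in TCM. Among them were the markers of neutrophils, at 34.8 and 53.6 (7 of 9 higher), and of AT1 cells, at 221 and 260 (5 of 10). Markers of pericytes (3.99 and 5.90, 5 of 8), smooth muscle cells (3.84 and 5.19, 5 of 6) and interstitial macrophages (1.96 and 3.44, 5 of 8) were higher too. Free RNA would give 7.82% of the member UMIs of AT2 cells in CM and 10.4% in TCM, and for Psmb9 13.7% and 39.8%. Split by depth, the summed members were lower in TCM in cells of 500 to 2000 UMIs (268 and 175 CP100k), of 2000 to 5000 UMIs (181 and 145) and of at least 5000 UMIs (161 and 144), where the log2 ratio was -0.16 (-0.26 to -0.06). In the 179 and 113 AT2 cells without any UMI of the shared endothelial markers, with median depths of 2943 and 4713 UMIs, the log2 ratio of the summed members was -0.06 (-0.19 to 0.07) and the median over the 5 members that still had 50 UMIs was 0.00. Psmb9 is not among those 5: it had 24 and 10 UMIs in these cells, at a log2 ratio of -0.85, beside -1.01 in all AT2 cells. Split by depth, Psmb9 was at -1.67 (11 and 6 UMIs) in cells of 2000 to 5000 UMIs. It was at -0.53 (27 and 24 UMIs), under 1.5-fold, in cells of at least 5000 UMIs, and it had 12 and 0 UMIs in the shallowest cells. These splits were added after the data were seen, and what part RNA of other cells has in the AT2 ratios was not tested beyond them.

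**Figure D4:**
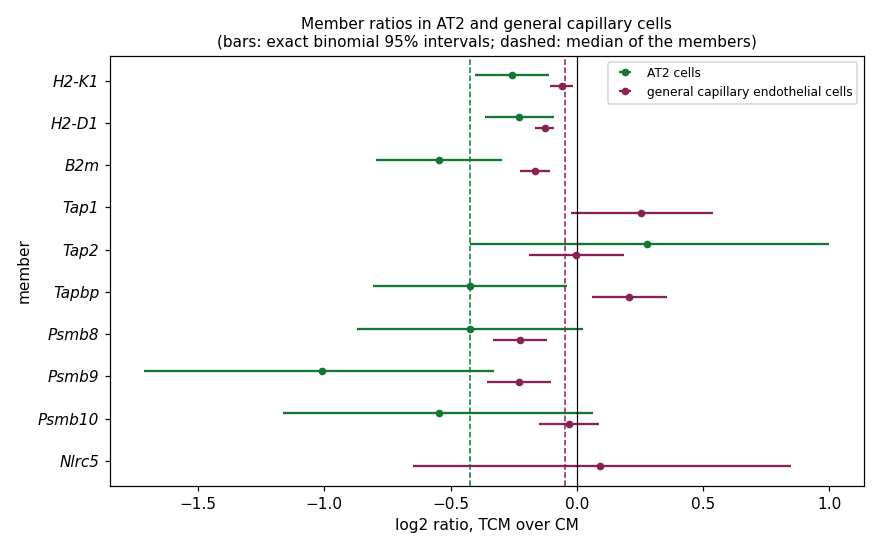
log2 ratio of TCM over CM for each measured member (y axis) in AT2 cells (green) and general capillary endothelial cells (purple), with exact binomial 95% intervals as bars, a solid line at 0 and dashed lines at the median of the members in each class. The AT2 points lie below the capillary points for 7 of the 8 members measured in both classes, and Tap2 lies above.

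General capillary cells, 1008 in CM and 1066 in TCM, held the most UMIs of the compared classes. More cells narrow the counting intervals only, and the ratios still compare 2 libraries. The median of the members in this class was -0.04 beside 0.00 for all genes, and none of the 10 members was at 1.5-fold. With each cell thinned to 1000 UMIs this median became -0.15. Psmb9 (-0.23, -0.35 to -0.10), Psmb8 (-0.22), B2m (-0.17), H2-D1 (-0.13) and H2-K1 (-0.06) had intervals below 0, while Tapbp (0.21, 0.06 to 0.36) had one above it. Of 13 other class I genes 12 were below 0, none past 1.5-fold. Irf1 had 0.18 (0.09 to 0.26). Past 1.5-fold were Jak2, a kinase of the interferon gamma receptor, which was higher (0.68, 77 and 148 UMIs), and Tyk2, a kinase of the type I interferon receptor, which was lower (-0.95, 68 and 42 UMIs). Of all genes in this class 3.43% were at least 1.5-fold higher and 2.42% at least 1.5-fold lower.

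Classical monocytes, with 59 cells in CM and 179 in TCM, held the only member past 1.5-fold higher. Tapbp went from 13.6 CP100k (38 UMIs) to 21.9 (211 UMIs), a log2 ratio of 0.68 (0.18 to 1.22), where 13.1% of genes in this class were at least 1.5-fold higher. Tap1 went the other way, from 10.4 (29 UMIs) to 5.50 (53 UMIs), at -0.92, where 8.52% of genes were as much lower. H2-K1 (-0.39) and H2-D1 (-0.45) were lower with intervals below 0. Of the lists around them, H2-T22 (-0.90), H2-Q6 (-0.72), Irf1 (-0.90) and Irf9 (-0.62), a factor of the type I interferon response, were past 1.5-fold lower, and Psma6 (0.65), a structural proteasome subunit, Socs3 (0.86), an inhibitor of cytokine signalling, Jak2 (0.73) and Rfxap (0.66) were higher. In this class the 9 neutrophil markers summed to 30.1 CP100k in CM and 88.5 in TCM, 8 of them higher in TCM, and their part in these ratios was not tested.

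Neutrophils differed between gene groups. H2-K1 (144 to 167 CP100k, 0.21) and H2-D1 (183 to 208, 0.18) were higher in TCM with intervals above 0, while B2m (75.6 to 60.4, -0.32) and Psmb9 (14.3 to 10.4, -0.46) were lower with intervals below 0. Psmb10 went from 5.64 to 3.55 CP100k (22 and 87 UMIs), at -0.67 with an interval that includes 0, where 26.7% of genes in neutrophils were at least 1.5-fold lower. The median over all genes in this class was -0.22 and that of 9 members -0.16, so relative to all genes the median of the members turned to 0.06. Free RNA would give 19.9% of the Psmb10 UMIs in CM and 47.1% in TCM. Of the lists around the members, Psmb7 (-0.75), the structural subunits Psma1 and Psmb3 (-0.85 each), H2-T22 (22 and 69 UMIs), Nfkb1 (56 and 176 UMIs), Rfxap (-1.58), a subunit of the RFX complex at MHC promoters, Nfyc (-0.65) and Irf2bp2 (-1.27) were past 1.5-fold lower, while Socs3 (0.71) and Stat2 (0.84) were higher. A cluster found mostly in TCM (8 cells in CM and 191 in TCM) belonged largely to this class. Without it the median was -0.12, and the log2 ratio of the summed members was 0.002 (-0.071 to 0.077), beside 0.071 in all neutrophils. This setting was added after the data were seen. In this class the 9 neutrophil markers, all higher in TCM, summed to 11994 CP100k in CM and 17161 in TCM, the non-classical monocyte markers to 273 and 145 (1 of 8 higher) and the mast cell and basophil markers to 10.2 and 1.06 (0 of 6 higher), and their part in these ratios was not tested.

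Tap1 was also called in CD8 T cells, from 8.27 CP100k (53 UMIs) to 4.16 (13 UMIs), at -0.99, where 8.66% of genes were at least 1.5-fold lower. The value turned to 0.06 when levels were averaged over cells. The structural subunits Psma4 (-1.28), Psmb2 (-0.78), Psma6 (-0.76) and Psma5 (-0.70) were past 1.5-fold lower in the same cells, as was Nfkb1 (-0.61, interval including 0), a subunit of NF-kappa B. In this class neutrophil markers summed to 2.50 CP100k in CM and 63.4 in TCM, and NK markers to 177 and 50.3, and their part in these ratios was not tested. In alveolar fibroblasts Tap1 had 31 and 19 UMIs, at -0.63 with an interval that includes 0, beside 3.12% of genes, and Socs1 (-0.60, interval including 0), an inhibitor of interferon signalling, was as much lower. In this class neutrophil markers summed to 4.51 CP100k in CM and 37.2 in TCM (8 of 9 higher) and B cell markers to 4.75 and 0.902 (0 of 8 higher), and their part was not tested. The heavy chains of these classes were at 0.24 and 0.02 in CD8 T cells and 0.08 and 0.09 in alveolar fibroblasts. In NK cells H2-K1 (209 to 247 CP100k, 0.24) and H2-D1 (311 to 362, 0.22) were higher with intervals above 0, as were Erap1 (0.99), which trims peptides in the endoplasmic reticulum, and Ifnar1 (0.77). Erap1 and Ifnar1 were past 1.5-fold, as were 6.15% of all genes in NK cells. In AT1 cells H2-K1, H2-D1 and B2m were lower, at -0.23, -0.23 and -0.25. Around them H2-T22 (-0.94), H2-Q6 (-0.87), Irf1 (-0.84) and Usp18 (-0.64, interval including 0), an inhibitor of type I interferon signalling, were past 1.5-fold lower in AT1 cells.

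The other lists were counted in the same way over the 19 classes, beside the 5.70% and 5.73% of all combinations of gene and class. This background is not matched to the lists for UMI count. Of 49 measured combinations, the constitutive subunits Psmb5, Psmb6 and Psmb7 had 0 past 1.5-fold higher and 1 lower, and 11 further core subunits had 1 and 7 of 195. The proteasome activator and assembly genes had 0 and 1 of 63. The peptide loading and trimming genes had 4 and 0 of 69, and 48 of their ratios were above 0. Other class I and class I-like genes had 3 and 12 of 118. The interferon gamma list had 2 and 3 of 60, type I receptors 3 and 1 of 33, transcription factors of class I genes 6 and 16 of 152, and inhibitors of interferon signalling 4 and 6 of 44. The share lower was above that of all genes for other class I genes (10.2%), transcription factors (10.5%) and inhibitors (13.6%). The share higher was above it for type I receptors (9.09%) and inhibitors (9.09%), and about equal to it for peptide loading and trimming (5.80%). The counts behind the shares of receptors and inhibitors are small, so these lists are not set apart from all genes. Ifng itself, which encodes interferon gamma, had 57 UMIs in CM and 21 in TCM over all cells (-1.50, -2.29 to -0.75). Most of them came from NK cells, with 32 and 10 UMIs (6.63 and 3.70 CP100k, -0.84, -2.03 to 0.22), and from T cells with no subtype, with 13 and 2. NK cells numbered 245 in CM and 142 in TCM.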

How the data were processed

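Lungs of female BALB/c mice were measured as 2 droplet libraries, 1 for control media (CM) and 1 for tumor-conditioned media (TCM), made with a 5′ kit. The authors counted molecules by their unique identifiers (UMIs) for each gene and barcode with Cell Ranger on mm10 (GRCm38.p6), and the deposited matrices hold these raw counts for all 737280 barcodes. The submitters' processing notes also name Seurat, whose output was not used here.

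Droplets with at least 500 UMIs, at least 200 genes and at most 10% mitochondrial UMIs were kept, as in the study's methods. Each cell was put in a class by its own markers: a marker counted where its UMIs exceeded what free RNA gives with a probability of 0.01 in that library, at least 2 markers were needed, and the best class had to reach 1.5 times the share of markers of the next. T cells were split by Cd4 and the Cd8 genes. No doublets were removed; leaving out the highest Scrublet scores was an alternative. A level is the UMIs of a gene per 100000 UMIs of the class in a library (CP100k), with an exact Poisson 95% interval. A ratio is TCM over CM on the log2 scale with an exact conditional binomial 95% interval, and shares have Clopper-Pearson intervals. All intervals cover counting error only. With 1 library a group no test was possible, so none was run, and a ratio is called when it is at least 1.5-fold with at least 50 UMIs in the class over both libraries. The ratio and its interval were tested on simulated Poisson counts, the model that the interval assumes. The simulation held no variation between cells or libraries, so it checks the computation only. The analysis ran in Python 3.11.15 with NumPy 2.4.6, SciPy 1.17.1 and Scanpy 1.11.5.

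The members and the lists around them were chosen with earlier results of these data known. All 10 members are named. Of the other lists, members past 1.5-fold in a class described are named, at most the 4 furthest from 1 per list, with Psmb5, Psmb6, Psmb7 and Irf1 whatever they did. A regulator that this rule also names is not reported here. Alternatives covered the cell filters, thinning each cell to 1000 UMIs, subtracting free RNA (profile of droplets with up to 50 UMIs), averaging over cells, scaling, the minimum of UMIs and classes taken from clusters. Further settings, added after the data were seen, are named where they are given. Promoter sequences are those of RefSeq on GRCm38.p6, and gene positions are those of GENCODE on GRCm38.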

Additional observations from a re-analysis of the deposited data

How the results depend on the processing

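No paired analysis was possible because each group is 1 library, and for the same reason no replicate could be left out. The number of member ratios at least 1.5-fold lower was 5 as reported and 9 with at most 5% mitochondrial UMIs, 9 with levels averaged over cells, 11 with free RNA subtracted and 13 with a minimum of 20 UMIs. The number higher was 1, against 5 averaged over cells, 4 with a minimum of 20 UMIs and 0 with classes taken from clusters. The share of all genes past 1.5-fold was counted only for the reported setting. The other counts therefore have no background and are not read as a result about the members. Over all cells the median of the members, -0.07, became -0.14 averaged over cells and -0.013 scaled by the median of gene ratios. In general capillary cells it became -0.15 with each cell thinned to 1000 UMIs, and in AT2 cells 0.00022 without cells holding endothelial UMIs, a setting added after the data were seen. The fold of the summed level of general capillary over AT2 cells, 4.76 in CM and 5.48 in TCM, became 4.12 and 3.71 per cell, 5.10 and 6.09 with free RNA subtracted, and 5.02 in TCM with classes from clusters. Tap1 in CD8 T cells turned to 0.056 averaged over cells. Of the other called ratios, Psmb9 in AT2 cells ranged from -1.64 to -0.70 and Tapbp in classical monocytes from 0.51 to 1.25. Tap1 ranged from -1.44 to -0.55 there and from -1.72 to -0.50 in alveolar fibroblasts, and Psmb10 in neutrophils from -1.21 to -0.30. All but Psmb9 came under 1.5-fold in some of these settings. Psmb9 came under it, at -0.53 (27 and 24 UMIs), in AT2 cells of at least 5000 UMIs, a split added after the data were seen. Of the 6 calls, 1 was among the 6 made with classes from clusters, that of Psmb9, and 0 among the 6 made with cells thinned to 1000 UMIs. The order of classes by level had rank correlations with the reported order from 0.98 up with free RNA subtracted and from 0.42 up per cell. With clusters they were from 0.89 up, over 14 classes without the T cells. Low UMI counts limit Tap1, Tap2 and Nlrc5 most.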

Other observations

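Classes with fewer than 50 cells in a library were left out of the comparisons, and their summed member levels are given as values. Non-classical monocytes, which patrol the vessel wall, had 826 CP100k in CM and 846 in TCM, near the capillary cells, from 71 and 42 cells. Conventional dendritic cells had 564 and 554, group 2 innate lymphoid cells 482 and 508, and large vessel endothelial cells 587 and 416 from 47 and 22 cells. Club cells had 126 and 81.0 and ciliated cells 91.4 and 95.7, so the airway classes were as low as smooth muscle cells or close to it.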
